A study of Mus musculus with 6 samples.

Results

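The genes described here are the SLAM receptor family of the mouse, with 9 receptors (Slamf1, Slamf6, Slamf7, Slamf8, Slamf9, Cd48, Cd84, Ly9 and Cd244) and Sh2d1a, which encodes the adaptor SAP. They were taken by name from the array annotation, as 10 of 36870 genes and 22 of 56605 probes, and every probe is accounted for below. TA was run on whole kidneys of female mice at 6 months of age, 3 of the strain MRL/MpJ (MRL) and 3 of the strain MRL/MpJ-Fas lpr/lpr (LPR), with 1 mouse and 1 array each. The strains share the MRL/MpJ background, no treatment is named for either, and the homozygous lpr allele of Fas, a death receptor that limits lymphocyte numbers, is what sets LPR apart. LPR mice develop a lupus-like disease with nephritis. No cells were separated before the RNA was taken.

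SLAM receptors are immunoglobulin-like proteins of haematopoietic cells, and most of them bind a copy of themselves on a neighbouring cell. CD48 lacks a cytoplasmic tail and is the ligand of CD244. Many of the others carry tyrosine-based switch motifs in their tails, to which SAP and its relatives bind. SAP brings in the kinase Fyn, and SAP signalling matters for follicular helper T cells, NKT cells and cytotoxic cells.

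The array measures each gene by probes of 60 bases, and the probes of 1 gene can read different parts of it. A small set that reads coding sequence is printed here, 1 for each kind of member, since the results turn on which stretch a probe reads. The capitals in the Cd244 probe mark the codons of a switch motif, the docking site for SAP. The other sequences were chosen as coding stretches of a self-binding receptor, a ligand and the adaptor, and positions are on the build mm9.

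Cd244 A_52_P541344, chr1:173507474-173508000, plus strand, across an exon junction: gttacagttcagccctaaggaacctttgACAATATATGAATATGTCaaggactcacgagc

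Slamf6 A_52_P45563, chr1:173866817-173868145, plus strand, across an exon junction: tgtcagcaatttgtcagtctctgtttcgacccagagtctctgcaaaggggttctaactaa

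Slamf7 A_52_P261262, chr1:173569299-173569358, minus strand: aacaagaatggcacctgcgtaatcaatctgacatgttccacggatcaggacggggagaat

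Cd48 A_55_P2132549, chr1:173629721-173629780, plus strand: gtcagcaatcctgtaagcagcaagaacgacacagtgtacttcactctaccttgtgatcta

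Sh2d1a A_55_P2745462, chrX:39873846-39873905, plus strand: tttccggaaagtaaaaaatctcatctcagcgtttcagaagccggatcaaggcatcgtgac

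All 5 of these probes were higher in LPR mice, and the values follow. A level is the log2 intensity relative to the 75th percentile of the array, and a change is the LPR mean minus the MRL mean on that scale. Testing in limma was limited to probes whose signal stood well above background in 3 or more mice, which held for 39924 probes of the array. The p-values were adjusted over all of these by the method of Benjamini and Hochberg and called under 0.05. Of the 22 probes of the family, 19 were tested, 16 of them were higher in LPR mice, 1 was lower and 2 did not pass. Over the whole array 6.53% of the tested probes were higher. The 16 probes were also those with all 3 LPR mice above all 3 MRL mice, which held for 11% of the tested probes.

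The filter bears on these counts, because 7 of the 19 tested probes were well above background in the LPR mice and in no MRL mouse, so they could pass only by being high in LPR mice. For such probes a lower bound is given ("at least"), with each MRL signal raised to the lowest signal that was well above background on its array. Of the 9 probes that were well above background on all 6 arrays, 6 were higher, 1 was lower and 2 did not pass when those probes were fitted alone, and 5.99% of all such probes of the array were higher. In whole kidney, more cells of a type and more RNA per cell cannot be told apart.

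**Figure D1:**
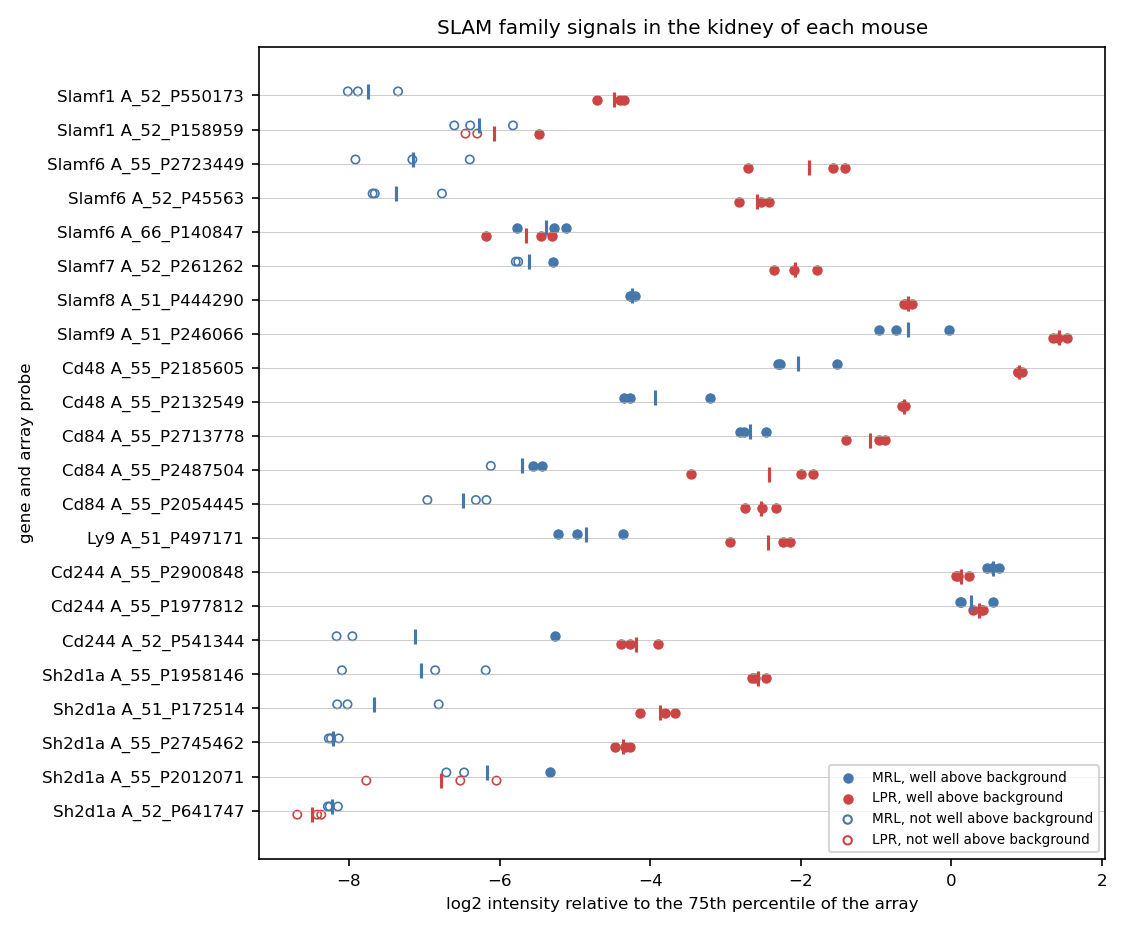
Levels of the 22 probes (rows) in the 6 mice, as log2 intensity relative to the 75th percentile of each array. Blue points are MRL mice, red points LPR mice, open points signals not well above background, and short bars group means of 3 mice. The red points lie to the right of the blue points in 16 of the 19 tested probes, and the Cd244 probe A_55_P2900848 runs the other way.

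Among the receptors, Slamf8, a receptor of macrophages that restrains their oxidative burst, had the most even values of the family. Its probe A_51_P444290 (NM_029084, chr1:174512067-174512126) gave levels of -4.26, -4.25 and -4.19 in the MRL mice and -0.52, -0.62 and -0.58 in the LPR mice. The spread within each group was small beside the distance between them. The change was 3.66 (standard error 0.10, 95% interval 3.44 to 3.89), a 12.7-fold rise (limma, adjusted p = 7.47e-06).

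Slamf9, a receptor of macrophages and dendritic cells, was well above background in every mouse. Its probe A_51_P246066 (NM_029612, chr1:174408455-174408514) gave -0.96, -0.73 and -0.03 in the MRL mice and 1.41, 1.54 and 1.35 in the LPR mice. MRL 3 lay nearest to the LPR mice, without overlap. The change was 2.01 (standard error 0.23), a 4.01-fold rise (limma, adjusted p = 0.00217).

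Slamf7, a self-binding receptor of plasma cells, NK cells and macrophages, was read by the probe A_52_P261262 printed above (NM_144539). It gave -5.75, -5.78 and -5.28 in the MRL mice, of which only MRL 3 was well above background, and -2.35, -2.08 and -1.79 in the LPR mice. The groups did not overlap, with a change of 3.53 (standard error 0.20, limma, adjusted p = 7.66e-05).

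Slamf6, also called Ly108, is a self-binding receptor of T, B and NK cells that signals through SAP, and it showed the highest bound of the family. Its brightest probe A_55_P2723449 (NM_030710, chr1:173873869-173873928) was not well above background in any MRL mouse and gave -1.56, -2.70 and -1.41 in the LPR mice. LPR 2 was the lowest of the LPR mice. The rise was at least 16.7-fold (limma, adjusted p = 0.000568).

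The junction probe A_52_P45563 of Slamf6, printed above, gave -2.52, -2.82 and -2.41 in the LPR mice, again against no MRL mouse above background, and was at least 10.3-fold higher (limma, adjusted p = 7.15e-05). The third Slamf6 probe, A_66_P140847 (chr1:173883204-173883263), lies further along the strand than the other two and carries the identifier of another transcript, ENSMUST00000195656. It was well above background in all 6 mice, with -5.28, -5.11 and -5.77 in the MRL mice and -6.18, -5.31 and -5.45 in the LPR mice. The groups overlapped, and the change of -0.26 (95% interval -0.90 to 0.38) did not pass (limma, adjusted p = 0.545).

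Slamf1, or CD150, is the self-binding receptor after which the family is named. Its probe A_52_P550173 (NM_013730, chr1:173730343-173730402) was not well above background in any MRL mouse and gave -4.40, -4.70 and -4.35 in the LPR mice. It was at least 2.77-fold higher (limma, adjusted p = 0.000107). The other Slamf1 probe, A_52_P158959, reads across an exon junction (chr1:173718133-173722451), was well above background in LPR 2 alone, and was not tested.

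Cd84, a self-binding receptor of B cells, T cells, macrophages and platelets, had 3 probes, and all of them were higher in LPR mice. The brightest, A_55_P2713778 (NM_013489, chr1:173820593-173820652), gave -2.46, -2.80 and -2.75 in the MRL mice and -0.87, -1.40 and -0.96 in the LPR mice. Without overlap, it rose 3.02-fold, with a change of 1.60 (95% interval 1.19 to 2.01, limma, adjusted p = 0.00154).

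The Cd84 probe A_55_P2487504 carries the identifier of another transcript (NM_001252472, chr1:173785140-173785199). It was well above background in 2 of the 3 MRL mice, with -6.12, -5.55 and -5.44, and gave -1.99, -3.45 and -1.83 in the LPR mice. LPR 2 was again the lowest of the LPR mice, and the change was 3.28 (95% interval 2.25 to 4.30, limma, adjusted p = 0.00383). The junction probe A_55_P2054445 (chr1:173816502-173818732) was not well above background in any MRL mouse, gave -2.33, -2.75 and -2.51 in the LPR mice and was at least 10.7-fold higher (limma, adjusted p = 8.28e-05). With the subtracted signals these changes were larger than that of the brightest probe. They stayed larger with a floor at the detection limit, 3.198 and 3.424 against 1.597 for the brightest. With normexp background correction and an added offset of 50 the 3 probes changed by nearly the same amount. The changes were then 1.17 for the brightest and 1.28 and 1.27 for the others. An added offset lowers the changes of dim probes most, so the normexp values cannot show whether the probes differ. The difference between the probes was not itself tested.

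Ly9, or CD229, a self-binding receptor of T and B cells that also signals through SAP, was read by A_51_P497171 (NM_008534, chr1:173518744-173518790). It gave -4.97, -5.23 and -4.36 in the MRL mice and -2.23, -2.94 and -2.14 in the LPR mice, all well above background. The groups did not overlap, and the change was 2.41 (standard error 0.29), a 5.33-fold rise (limma, adjusted p = 0.00245).

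**Figure D2:**
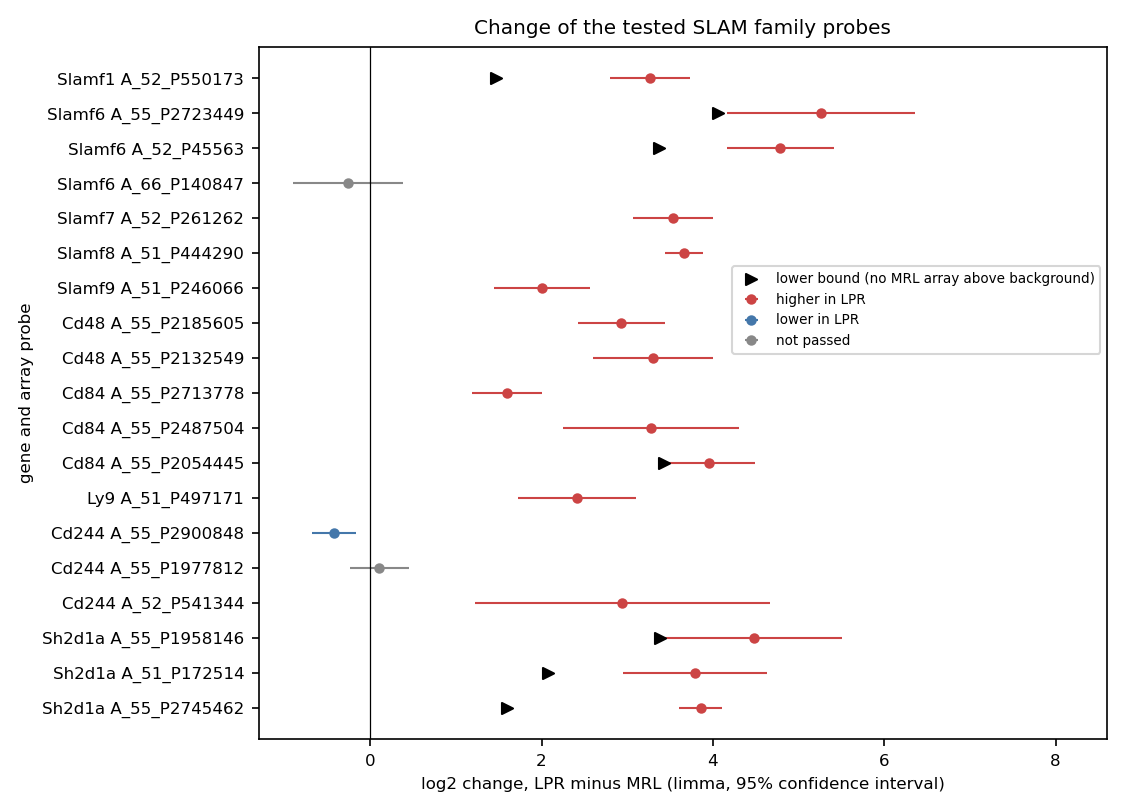
Change of the 19 tested probes, LPR minus MRL on the log2 scale, with 95% confidence intervals from limma. Red marks probes that were higher in LPR mice, blue the 1 that was lower, and grey those that did not pass. A triangle marks the lower bound of the 7 probes with no MRL array above background, which lies from 1.47 for Slamf1 to 4.06 for Slamf6.

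Cd48, the anchored ligand on most leukocytes, was read by 2 probes that moved alike. The brighter, A_55_P2185605 (NM_007649, chr1:173635201-173635260), gave -2.27, -2.30 and -1.52 in the MRL mice and 0.94, 0.88 and 0.89 in the LPR mice. MRL 3 stood above the other MRL mice, and the LPR mice were nearly equal. The change was 2.93 (standard error 0.21), a 7.62-fold rise (limma, adjusted p = 0.000246). The coding probe A_55_P2132549, printed above, gave -4.26, -4.35 and -3.20 against -0.64, -0.61 and -0.65, a change of 3.30 (standard error 0.30, limma, adjusted p = 0.00061).

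Cd244, or 2B4, is the receptor of CD48 on NK cells and cytotoxic T cells, and its 3 probes did not move together. The coding probe A_52_P541344, with the switch motif codons shown above, gave -8.16, -7.95 and -5.27 in the MRL mice and -3.90, -4.39 and -4.27 in the LPR mice. Of the MRL mice only MRL 3 was well above background, and it stood far from MRL 1 and MRL 2, whose values are background signals. The change was 2.94 (standard error 0.73, 95% interval 1.22 to 4.66), with an adjusted p of 0.0433 in limma. With a floor at the detection limit the change was 1.53 (limma, adjusted p = 0.00424). Without MRL 3 the change was 3.87 (limma, adjusted p = 0.000119), measured against background signals only. Without any other single mouse the call was lost, with adjusted p from 0.0887 to 0.117.

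The brightest Cd244 probe, A_55_P2900848, has the identifier ENSMUST00000194797, lies at chr1:173539819-173539877 and was lower in LPR mice. It gave 0.47, 0.64 and 0.54 in the MRL mice and 0.06, 0.09 and 0.24 in the LPR mice. The groups did not overlap, and the change of -0.42 (standard error 0.11, 95% interval -0.68 to -0.17) passed narrowly in limma (adjusted p = 0.0460). The call was lost when any 1 of the 6 mice was left out, with adjusted p from 0.0762 to 0.156. The probe lies beyond the Ly9 probe on the chromosome, while the other Cd244 probes lie on the near side of it.

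The third Cd244 probe, A_55_P1977812 (NM_018729, chr1:173515388-173515447), gave 0.55, 0.11 and 0.13 in the MRL mice and 0.39, 0.29 and 0.42 in the LPR mice, and the groups overlapped. The change of 0.11 (95% interval -0.24 to 0.45) did not pass in limma (adjusted p = 0.649). This probe holds the stretch cagagaaaccctgtct, which occurs in 42 of 32851 mouse promoter windows of RefSeq, and it shares a run of 16 bases with 13 probes of other genes. The other probes of the family share such a run with at most 1 probe of another gene. What part shared sequence has in its level was not tested.

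The choice of probe therefore sets the direction for Cd244. With the mean over its 3 probes in place of the brightest, the change was 0.88 and did not pass (limma, adjusted p = 0.0598), while the other 9 genes of the family were higher by either way of choosing. By the brightest probe, 9 of the 10 genes were higher and 1 was lower, where 7.12% of the 25805 tested genes of the array were higher and 5.47% were lower. The median fitted change of the 10 genes was 3.098, or 2.67 with the genes not above background in MRL mice at their bounds, beside -0.12 over all tested genes.

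Sh2d1a, which encodes SAP, was read by 5 probes on the X chromosome, and none of the 3 that were tested was well above background in any MRL mouse. The brightest, A_55_P1958146 (NM_001313688, chrX:39875116-39875175), gave -2.64, -2.61 and -2.46 in the LPR mice and was at least 10.4-fold higher (limma, adjusted p = 0.000932). A_51_P172514 (NM_011364, chrX:39874920-39874979) gave -3.67, -4.14 and -3.81 and was at least 4.23-fold higher (limma, adjusted p = 0.000755). The coding probe A_55_P2745462, printed above, gave -4.47, -4.27 and -4.33 and was at least 3.03-fold higher (limma, adjusted p = 7.47e-06).

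The remaining Sh2d1a probes read other transcripts further downstream and were not tested. A_55_P2012071 (ENSMUST00000101619, chrX:39880985-39881044) was well above background in MRL 2 alone, and A_52_P641747 (ENSMUST00000129855, chrX:39876176-39876235) in no mouse.

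The size of these changes depends on how the background is treated and on any added offset. This was largest for dim probes but also held for probes above background in every mouse. Normexp background correction, with an offset of 50 added to each signal, was used in place of the background subtraction of the scanner software. Each of the 16 probes that were higher still passed in limma, with a smaller change. It was 0.40 for Slamf1, 1.89 and 1.39 for the Slamf6 probes, 1.57 for Slamf7, and 1.39, 0.74 and 0.66 for the Sh2d1a probes. For Slamf8 it was 2.38, for Ly9 1.13, for the coding Cd48 probe 2.25 and for the coding Cd244 probe 0.58. The change of each of the 7 probes with a bound lay under that bound. An added offset by itself lowers changes, those of dim probes most. The part of the offset and that of the correction were not told apart, and the bounds are given for the subtracted signals.

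Across the 16 probes that were higher, LPR 2 was the lowest LPR mouse in 11 probes, and MRL 3 the highest MRL mouse in 10. MRL 3 also had the highest mean level of 8 macrophage markers among the MRL mice, 0.53 against -0.02 and -0.12, and the part of this in the family's values was not tested.

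The 9 receptor genes lie on chromosome 1, and their outermost probes span 1005 kb (chr1:173507474-174512126). The genes between them gave a measure of the neighbourhood that the choice of members did not use. Of 42 probes of other genes in this stretch, 35 were tested, 3 were higher in LPR mice and 0 were lower. Their median change was -0.10 with a range of -0.82 to 0.99. Of the 39924 tested probes of the array 6.53% were higher and 2462 were lower, with a median change of -0.14. In limma 7 of the neighbour probes were lower at an unadjusted p under 0.05. The methods' test of the study with Benjamini-Hochberg adjustment called 0 of them lower. The 3 that were higher were Atp1a4, a sodium pump subunit (change 0.99, adjusted p = 0.0245 in limma), Igsf8, a tetraspanin partner of the immunoglobulin superfamily (0.51, adjusted p = 0.0323), and 1 of the probes of the actin-binding protein gene Tagln2 (0.58, adjusted p = 0.0295). The brighter Tagln2 probe did not pass, with a change of 0.22. Each of these was smaller than the change of every higher receptor probe that was well above background in all 6 mice. The least of those changes was 1.60 on the subtracted signals. The other higher receptor probes rest in part on background signals in MRL mice, so they are left out of this comparison. Among them Slamf1 had a bound of 1.47, and its change with normexp and the offset was 0.40.

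**Figure D3:**
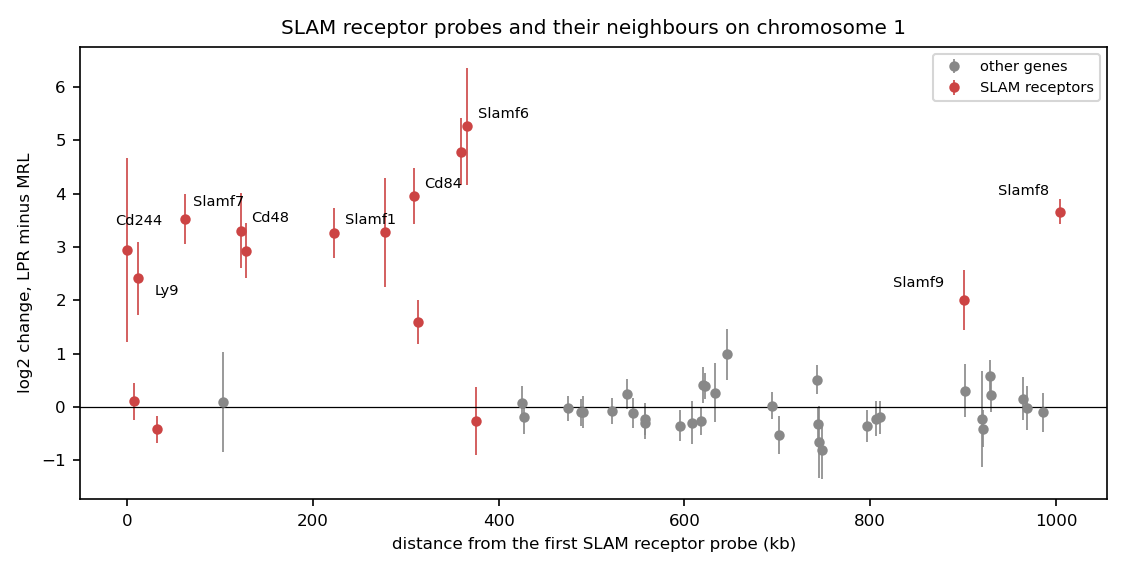
Change of the tested probes between the outermost SLAM receptor probes of chromosome 1, LPR minus MRL on the log2 scale with 95% confidence intervals, against the distance in kb from the first of them. Red points are receptor probes, labelled at the highest probe of each gene, and grey points are other genes. The grey points lie between -0.82 and 0.99, and the fitted changes of the receptor probes that were higher lie from 1.60 upwards. For receptor probes not well above background in every MRL mouse, the fitted change rests in part on background signals.

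The starts of the receptor genes were read in the RefSeq promoter table of the build GRCm38.p6, which holds 250 bases before and 50 after each start. Promoters were found for 8 of the 10 genes, all but Ly9 and Sh2d1a, and Cd244 is listed as Cd244a. Motifs were searched on both strands as plain letters. The core GGAAGT of ETS factors was in 3 of the 8 (Cd48, Slamf8 and Slamf9) and in 23.8% of all 32851 promoters. The interferon element core, GAAA and GAAA with any 2 bases between, was in 1 of the 8, Slamf8, and in 3.44% of all. The core read by NF-kappaB, GGG and CC with any 5 bases between, was in 3 (Cd84, Slamf6 and Slamf8) and in 50.8% of all, and the STAT core TTCNNNGAA was in 0 of the 8 and in 8.3% of all.

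The 250 bases before the start of Slamf8 and of Slamf9 are printed because both are myeloid receptors at the same end of the stretch and Slamf8 alone held the interferon core. Capitals mark the ETS core and, at the end of the Slamf8 stretch, the interferon core, both on the reverse strand there. A match of letters is a description and was not tested against the changes.

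Slamf8, chr1:172590569-172590818 (GRCm38.p6), minus strand: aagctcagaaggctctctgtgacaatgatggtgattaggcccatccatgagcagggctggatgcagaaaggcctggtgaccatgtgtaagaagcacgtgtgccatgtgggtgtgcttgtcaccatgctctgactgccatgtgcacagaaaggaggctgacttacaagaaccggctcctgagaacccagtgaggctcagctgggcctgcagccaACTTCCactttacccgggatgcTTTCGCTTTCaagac

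Slamf9, chr1:172475110-172475359 (GRCm38.p6), plus strand: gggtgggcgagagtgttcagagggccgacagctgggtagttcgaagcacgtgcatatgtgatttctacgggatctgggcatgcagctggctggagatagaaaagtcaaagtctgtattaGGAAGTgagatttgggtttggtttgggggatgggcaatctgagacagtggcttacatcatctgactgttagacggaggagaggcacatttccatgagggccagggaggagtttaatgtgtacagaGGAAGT

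Of 33 other genes of the SLAM pathway, 32 were tested, 16 were higher in LPR mice, 1 was lower and 15 did not pass, with a median change of 0.51. The array as a whole had 7.12% of its tested genes higher and 5.47% lower, with a median change of -0.12. Among the adaptors, Sh2d1b1, which encodes the SAP relative EAT-2, was at least 3.54-fold higher (limma, adjusted p = 0.000826), and its neighbour Sh2d1b2 was not tested. Cd2, another receptor for CD48 on T cells, gave -3.92, -2.89 and -3.65 in the MRL mice and 0.94, 1.33 and 1.19 in the LPR mice. The groups stood far apart, with a change of 4.64 (standard error 0.27, limma, adjusted p = 8.42e-05).

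Of the 4 kinases, 3 were higher. Lck, the Src-family kinase of T cells, had a change of 3.53 (standard error 0.12, limma, adjusted p = 1.34e-05), while Fyn, the kinase that SAP brings to the receptors, had a change of 0.91 (standard error 0.12). Of the 4 phosphatases, Inpp5d, which encodes SHIP-1, changed by 1.77 and Ptpn6, which encodes SHP-1, by 1.09, and Ptpn11 and Ptprc did not pass by their brightest probes. The probes of Ptprc, which encodes the leukocyte antigen CD45, disagreed, since the brightest changed by 0.39 and 5 others were higher, such as A_52_P677117 with a change of 2.75. Of 11 genes that carry the signal further, 6 were higher, among them the exchange factor Vav1 (change 3.09, standard error 0.35) and the scaffold Lat (change 2.68, standard error 0.12). None of the 3 phagosome genes that act with Slamf1 (Becn1, Pik3c3 and Uvrag) passed in limma, with changes from -0.22 to 0.13, and 0 had an unadjusted p under 0.05.

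Of 8 genes of the T cell programmes tied to SAP, 3 were higher. Icos, the costimulator of follicular helper T cells, changed by 3.86 (standard error 0.16, limma, adjusted p = 2.54e-05), and Pdcd1, which encodes PD-1, by 3.85 (standard error 0.24). Cxcr5, the receptor that leads T and B cells into follicles, was not well above background in any MRL mouse and was at least 11.1-fold higher (limma, adjusted p = 0.000725). Il21, the cytokine of follicular helper T cells, was lower by its brightest probe (change -0.90, adjusted p = 0.0258 in limma) and at least 4.39-fold higher by its other probe (adjusted p = 8.56e-05), which was above background in LPR mice alone. The probes of Il21 thus disagreed in direction.

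**Figure D4:**
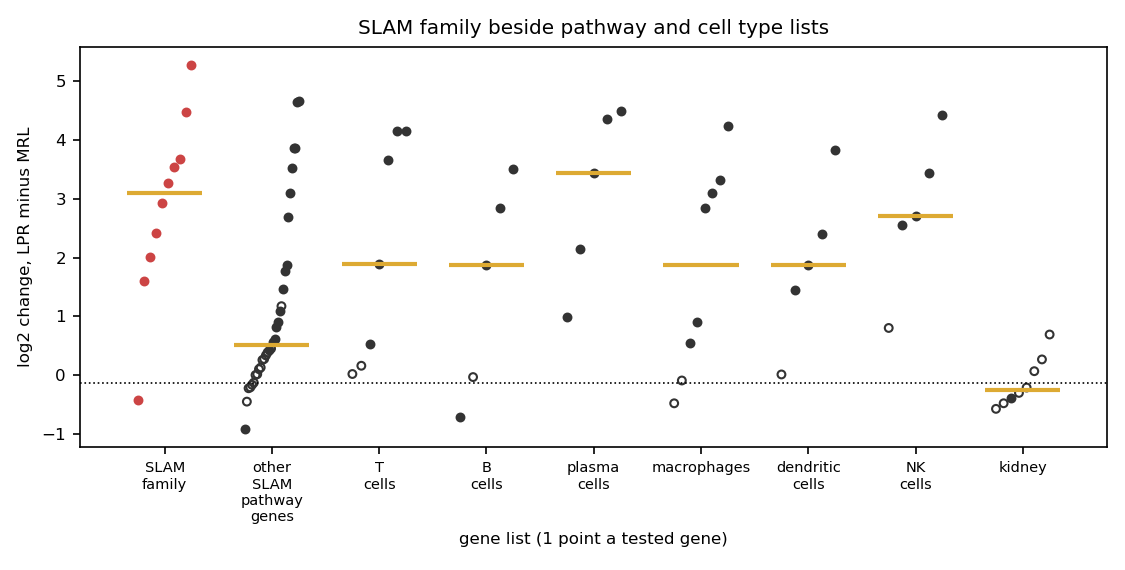
Fitted change of each tested gene by its brightest probe, LPR minus MRL on the log2 scale, in the SLAM family (red), the other SLAM pathway genes and the marker lists (black). Filled points passed at an adjusted p under 0.05 in limma, yellow bars are medians, and the dotted line is the median over all tested genes, -0.12. The SLAM family has 9 of 10 fitted points above 1.5, and the kidney list has none that passed as higher. Slamf1, Slamf6 and Sh2d1a were not above background in MRL mice, and Slamf1 lies at 1.47 by its bound.

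Of 35 tested markers of the cells that can carry these receptors, 27 were higher in LPR mice, 7 did not pass and 1 was lower. Over all tested genes of the array 7.12% were higher and 5.47% were lower. Higher in LPR mice were 5 of 7 tested T cell markers, led by Cd3g (change 4.15), 3 of 5 B cell markers, and 5 of 5 plasma cell markers, led by Jchain (4.49). So were 6 of 8 macrophage markers, led by Fcgr1 (4.23), 4 of 5 dendritic cell markers, led by Itgax (3.82), and 4 of 5 NK cell markers, led by Nkg7 (4.42). The dendritic cell marker Zbtb46 (change 0.02) and the NK cell marker Ncr1 (0.805) did not pass. Nor did the T cell markers Cd247 (0.16) and Cd8a (0.02), the B cell marker Cd22 (-0.03) and the macrophage markers Itgam (-0.09) and Mertk (-0.47). The B cell marker Ms4a1 was lower by its brightest probe (change -0.70, adjusted p = 0.0497 in limma).

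A summed level is weighted to the brightest genes of its list. These were Csf1r and Itgam for macrophages (changes 0.55 and -0.09) and Jchain for plasma cells. The summed level of each list separated the groups. It ran from 2.12 to 2.34 in MRL mice and from 3.47 to 3.68 in LPR mice for T cells, from 0.59 to 0.69 and from 2.08 to 2.46 for B cells, and from 1.37 to 2.19 and from 5.56 to 6.56 for plasma cells. For macrophages it ran from 4.85 to 5.19 and from 5.67 to 5.78, for dendritic cells from -1.36 to -1.28 and from 1.27 to 1.61, and for NK cells from -2.17 to -1.59 and from 1.91 to 2.19. The markers Trat1, Blk and Klrb1c were above background in too few mice to be tested, and no list was empty. The part of these cells in the changes of the SLAM family was not tested.

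The 8 kidney markers, of podocytes and tubules, were well above background in all mice. None passed as higher in LPR mice in limma, and 1, Nphs1, was higher at an unadjusted p under 0.05 only (change 0.69). Lrp2, the proximal tubule receptor megalin, was lower (change -0.39, adjusted p = 0.0492 in limma). Slc12a1 and Slc12a3 were lower at an unadjusted p under 0.05 only (changes -0.57 and -0.47). Their summed level ran from 9.25 to 9.32 in MRL mice and from 8.96 to 9.05 in LPR mice.

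Fas was read by 2 probes on chromosome 19. The brighter, A_55_P2091676 (chr19:34402164-34402223), gave -0.37, -0.28 and -0.06 in the MRL mice and -0.49, -1.25 and -0.37 in the LPR mice, and its change of -0.47 did not pass (limma, adjusted p = 0.234). The other, A_52_P73385, was above background in LPR mice alone and at least 1.47-fold higher (limma, adjusted p = 0.0338).

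The genes with the pattern most like the family were found by the distance between their values in the 6 mice, each gene centred on its own mean. Nearest to the mean of the 10 members were a pair of long noncoding RNA probes of chromosome 1, LOC664787, LOC102632465 and H2-M3, a nonclassical MHC class I gene, at distances of 0.17, 0.19, 0.21, 0.25 and 0.26. Of the members themselves, Cd48 lay nearest to that mean (0.56) and Cd244 farthest (4.04).

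For the members other than Cd244, the nearest gene was Cd74, the MHC class II invariant chain, for Slamf8 (distance 0.12), the myeloid receptor gene Cd300c2 for Cd48 (0.23) and Cd200r1, an inhibitory myeloid receptor gene, for Ly9 (0.24). It was Mir142hg, the host gene of a leukocyte microRNA, for Slamf1 (0.28), Ppfia4 for Slamf9 (0.26), 4930403D09Rik for Slamf7 (0.31) and a long noncoding RNA probe of chromosome 1 for Cd84 (0.25). For Sh2d1a it was P2ry13, a purinergic receptor gene (0.62), and for Slamf6 H2-Eb2, an MHC class II gene (0.82). Slamf1, Slamf6 and Sh2d1a were not above background in MRL mice, so their distances, and those to the mean of the members, rest in part on signals at background. With 6 mice in 2 groups, such distances describe these arrays only.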

How the data were processed

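Cy3-labelled RNA from 6 kidneys was measured on a single slide of the type Agilent SurePrint G3 mouse, which held all 6 arrays (probe positions on mm9). The labels name the RNeasy Mini Kit for the RNA, and the paper names Trizol. The deposited intensity of each spot came from Feature Extraction 12.0.3.1, background-subtracted by the software and not normalized between arrays. The authors also deposited a ratio of each intensity to the 75th percentile of its array, used here as an alternative. Values here are log2 intensities minus the 75th percentile of all spots that are not controls. Outlier spots were left out, and spots of a probe were averaged. A gene is represented by its tested probe of highest mean signal. LPR and MRL were compared by lmFit and eBayes of limma 3.58.1 (R 4.3.3), and the steps were tested on simulated data. An exact test of 3 against 3 mice has too few arrangements to pass, so none was made. The summed level of a list is the log2 of its summed intensities. The 75th percentile ran from 706 to 942, 69.6% to 73.5% of spots were well above background, and no spot was saturated. With 3 mice a group, the number of arrays limits precision. Each array is 1 kidney by its title, and the numbered kidneys of a group are taken here as separate mice.

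The text names every family probe, Fas, pathway genes that passed with a change of at least 2 or that fell, the leading marker of each list, neighbours that passed, and the nearest genes by pattern. Further genes are named to describe groups. Some genes are not reported here and remain in the counts. The members and lists were chosen with earlier results of these data known.

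The alternatives were the authors' ratios, quantile normalization, normexp (offset 50), centring on the median, the percentile of the detected probes, a floor at the detection limit, outlier spots kept, no filter, a filter on all 6 arrays, an intensity trend, slide column, slide row or replicate number in the fit, the methods' t-test (with Benjamini-Hochberg adjustment), the mean over probes, and leaving out each mouse. Figures were drawn with matplotlib 3.10.9.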

Additional observations from a re-analysis of the deposited data

How the results depend on the processing

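Of the 16 family probes that were higher, 6 were called with a filter on all 6 arrays, since the others were not above background on every array. Of the 9 genes 5 were then called, and Slamf1, Slamf7 and Sh2d1a had no probe left. Slamf6 was left with A_66_P140847 alone, which did not pass (change -0.26, limma, adjusted p = 0.512). Leaving out each mouse in turn gave 15 to 16 probes, 9 to 9 genes and 14 to 16 pathway genes. The 1 probe called lower, of Cd244, became 0 with no filter, centring on the median, the percentile of the detected probes, the slide column, the slide row or the replicate block in the fit, the methods' t-test, and each mouse left out (0 to 0). The 1 pathway gene called lower became 0 with no filter, the slide row, the replicate block, the methods' t-test and the mean over probes, and 0 to 1 with a mouse left out. The labels do not say whether the replicate numbers pair the mice. Deviations of mice of 1 number correlated at 0.12, 0.02 and 0.01, which cannot settle it. With the replicate block 15 family probes, 9 genes and 14 pathway genes were higher. The Slamf6 probe A_66_P140847, which did not pass, turned from -0.26 to 0.00635 without LPR 1 (limma, adjusted p = 0.989), and lay from -0.45 to 0.00635 over the mice left out. The Cd244 probe A_52_P541344 lost its call in 10 of 19 alternatives and A_55_P2900848 in 13 of 20, and the Cd84 probe A_55_P2487504 in 1 of 19, the methods' t-test (adjusted p = 0.0513). The methods' t-test called 16 family probes higher before and 14 after Benjamini-Hochberg adjustment. The other 14 called family probes kept direction and call in every alternative that gave a value. Within the first row of the slide, which held LPR 1 and all MRL mice, the change of the brightest probes was 3.35 for Slamf1, 5.59 for Slamf6 and 3.72 for Slamf8, and the second row held LPR mice alone. The median of all tested probes was -0.14, and from -0.14 to -0.11 under the other scalings. Background treatment and signals near background limit the sizes of the changes. The causes of these changes were not tested.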
